A study of Homo sapiens with 3 samples.

Results

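The HOX cluster genes were followed by RNA-seq in parental MM468 cells and in a paclitaxel-resistant line derived from them. They were taken as all protein-coding genes whose symbol is HOXA, HOXB, HOXC or HOXD followed by a number only, which gave 39 of the 46427 genes of the deposited table. Of these, 11 were in the HOXA cluster, 10 in HOXB, 9 in HOXC and 9 in HOXD. Parental MM468 is the MDA-MB-468 line of triple-negative breast cancer and received no drug, and MM468/PR cells survived exposure to 2 to 320 nM paclitaxel. Both were grown in the same medium with serum, and the labels give both the wild-type genotype. Each line gave 1 library, so no difference between them has a replicate check and a difference cannot be told apart from chance differences between single cultures. MM468/PR is the surviving population of 1 selection, and the sources used here do not say whether drug was present at harvest.

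HOX genes encode homeodomain transcription factors that set the identity of body regions along the head-to-tail axis. In each cluster they lie in a row in the order in which they act along that axis, with low-numbered genes used in anterior regions and high-numbered genes in posterior regions, and genes with the same number in different clusters are paralogs. Their proteins bind DNA with TALE partners of the PBX and MEIS families, Polycomb and Trithorax complexes keep them silent or active, and retinoic acid switches on the low-numbered genes first. Adult mammary epithelium and breast tumours keep part of this expression.

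The library of parental cells held 32704885 counts and that of MM468/PR cells 43242628, and the 10 most abundant genes took 8.41% and 6.72% of them. All 11 markers of epithelial cells had 10 or more counts in both lines. In MM468/PR cells 4 of the 11 were lower by 2-fold or more and none higher: KRT14 by 7.66 times, CLDN3 by 3.98, KRT7 by 2.24 and CLDN7 by 2.03. Among all genes compared, 20.5% were higher and 13.5% lower to this degree, and among protein-coding genes 13.9% and 14.5%. The part of these markers in the HOX values was not tested. The summed TPM (the deposited transcript level, corrected for gene length and depth) of 9 markers of leukocytes, endothelium, fibroblasts and hepatocytes was 8.45 in parental and 8.32 in MM468/PR cells, and 4 of the 9, among them CD3E, COL1A2 and PDGFRB, were at 0 in both. HOX genes took 0.0166% and 0.0187% of all counts. A count of 0 allows a level of up to 3 counts, which was a CPM (counts scaled to the library total) of 0.0917 and 0.0694. In bulk samples, fewer cells with a transcript and less of it per cell cannot be told apart.

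Promoters of HOX genes on which the results turn are given first. The promoter table used here, from RefSeq in the build GRCh38.p14, gave 27 windows of 20 of the 39 HOX genes, each from 250 bases before to 50 bases after a transcript start, and 26 of them were distinct. Both HOXA10 promoters, that of HOXA9 and that of HOXA13 are shown because these neighbouring genes had higher values in MM468/PR cells, that of HOXD13 because its cluster was at 0 counts, and the window shared by HOXC4 and HOXC5 because these genes cannot be fully separated in the counts. Each is printed 5′ to 3′ on the strand of its gene. Capitals mark matches, on either strand, to TTTATNG, a core bound by posterior HOX and CDX proteins, or to TATAAA, the TATA box core, and these 2 motifs can overlap.
HOXA9, minus strand, chr7:27165488-27165787: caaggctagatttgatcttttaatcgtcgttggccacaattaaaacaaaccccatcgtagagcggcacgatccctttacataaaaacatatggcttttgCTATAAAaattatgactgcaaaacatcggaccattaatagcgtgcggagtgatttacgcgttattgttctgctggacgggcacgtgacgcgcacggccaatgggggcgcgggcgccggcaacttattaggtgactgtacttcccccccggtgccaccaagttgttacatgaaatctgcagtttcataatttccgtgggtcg
HOXA10, upstream start, minus strand, chr7:27179812-27180111: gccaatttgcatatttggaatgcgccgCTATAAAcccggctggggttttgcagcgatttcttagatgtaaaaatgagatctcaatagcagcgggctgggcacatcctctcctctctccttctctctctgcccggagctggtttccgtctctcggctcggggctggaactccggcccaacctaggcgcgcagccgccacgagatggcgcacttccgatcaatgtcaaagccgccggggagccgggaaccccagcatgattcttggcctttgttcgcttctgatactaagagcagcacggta
HOXA10, downstream start, minus strand, chr7:27174271-27174570: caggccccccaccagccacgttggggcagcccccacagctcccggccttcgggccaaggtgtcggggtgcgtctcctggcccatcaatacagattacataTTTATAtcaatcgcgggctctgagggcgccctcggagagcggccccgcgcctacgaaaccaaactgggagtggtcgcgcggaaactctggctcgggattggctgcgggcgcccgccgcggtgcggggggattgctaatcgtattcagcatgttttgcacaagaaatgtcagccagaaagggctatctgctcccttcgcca
HOXA13, minus strand, chr7:27200042-27200341: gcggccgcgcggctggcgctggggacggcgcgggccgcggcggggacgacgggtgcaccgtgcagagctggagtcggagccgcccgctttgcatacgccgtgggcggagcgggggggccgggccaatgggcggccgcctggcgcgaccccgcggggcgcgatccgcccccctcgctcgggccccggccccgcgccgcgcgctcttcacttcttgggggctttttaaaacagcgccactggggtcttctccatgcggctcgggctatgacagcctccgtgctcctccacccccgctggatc
HOXD13, plus strand, chr2:176092471-176092770: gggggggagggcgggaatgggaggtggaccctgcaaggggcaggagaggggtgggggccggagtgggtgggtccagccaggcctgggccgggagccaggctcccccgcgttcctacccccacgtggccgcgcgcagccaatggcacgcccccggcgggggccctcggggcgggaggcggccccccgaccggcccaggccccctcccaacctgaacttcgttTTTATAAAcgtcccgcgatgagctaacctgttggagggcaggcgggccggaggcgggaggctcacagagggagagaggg
HOXC4 and HOXC5, plus strand, chr12:54016638-54016937: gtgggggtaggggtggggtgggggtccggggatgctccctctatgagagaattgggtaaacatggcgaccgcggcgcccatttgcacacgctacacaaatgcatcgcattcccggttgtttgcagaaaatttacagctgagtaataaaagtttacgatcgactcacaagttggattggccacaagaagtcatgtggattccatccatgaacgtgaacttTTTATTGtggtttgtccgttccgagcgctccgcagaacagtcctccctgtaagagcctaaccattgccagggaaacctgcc

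The promoters of these 20 genes were rich in CpG. Their median was 22.5 CpG, with a range of 0 to 44, and the median over 34943 promoters of all genes was 14. The silent HOXD13 promoter held 24 CpG, close to the 22 of HOXA9, and HOXA13 held 44. TTTATNG was found in 6 of the 26 distinct HOX promoters and in 9.75% of all promoters, and TATAAA in 5 of the 26 and in 11.6% of all. TGATNNAT, the joint site of PBX and HOX proteins, was found in 3 of the 26 and in 7.42% of all. AGGTCA, the retinoic acid receptor half-site, was found in none of the 26 and in 13.8% of all. The 2 TATAAA matches of HOXD13 overlap each other, and in HOXA9 and in the upstream HOXA10 promoter TATAAA and TTTATNG share bases. A match is a description of the letters in these windows.

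In both lines 3 of the 4 clusters were expressed and 1 was not. All 9 HOXD genes had 0 counts in both libraries, as did HOXB1 and HOXB5, which act in the hindbrain and in cervical and thoracic segments. HOXB8 had 3 counts in parental and 0 in MM468/PR cells, which is within the limit of a count of 0. The remaining 27 genes, all 11 HOXA, 7 HOXB and all 9 HOXC genes, had 10 or more counts in at least 1 line, and 24 had this in both. HOXA7, HOXB9 and HOXB13 were the 3 that fell short in parental cells, with 9, 3 and 5 counts, so they entered the comparison only through MM468/PR cells.

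The silent HOXD cluster lay between expressed genes. HOXD occupies chr2:176087487-176190907. Beside it LNPK, an endoplasmic reticulum protein gene, had 1039 counts in parental and 1163 in MM468/PR cells. MTX2, a mitochondrial import gene on the other side, had 1545 and 1733. The homeobox gene EVX2 next to HOXD13 and the non-coding genes HAGLR, HAGLROS and HOXD-AS2 inside the cluster were at 0 in both libraries, so the 0 counts covered coding and non-coding genes of the cluster alike. Both outer neighbours stayed under a 2-fold difference, with fold changes of 0.723 and 0.725 in MM468/PR cells.

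**Figure D1:**
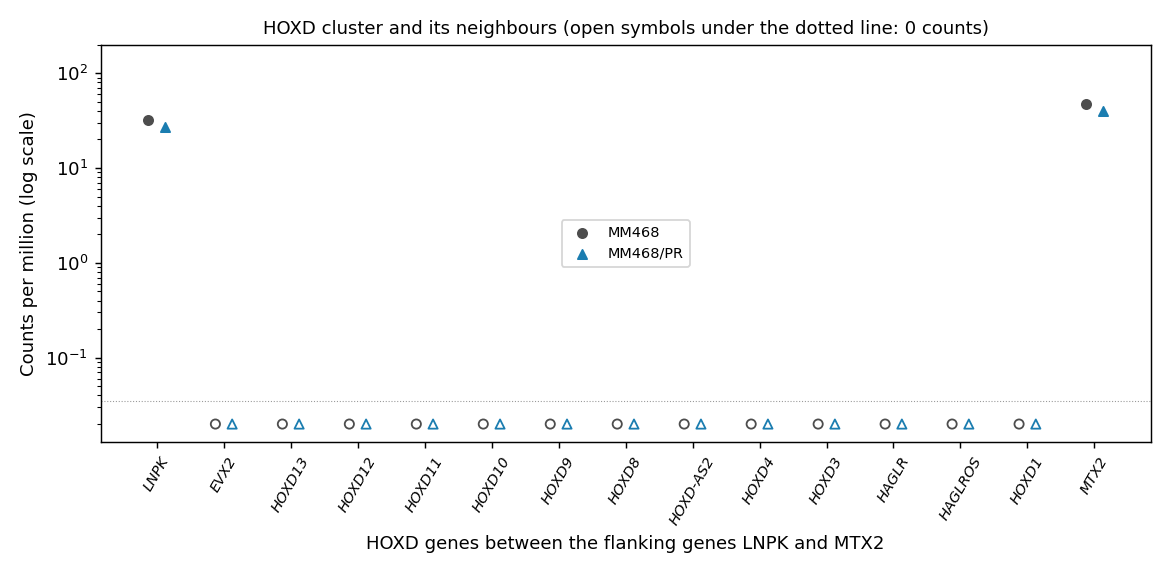
CPM on a log scale, in the 2 libraries, of the 9 HOXD genes and the genes beside and between them, in their order on the chromosome, with open symbols for 0 counts. LNPK and MTX2 at the 2 ends are expressed in both lines and every gene between them is at 0.

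HOXC held the most HOX transcript in each line, and the HOXA share was higher in MM468/PR cells. On the TPM scale HOXC held 59.7% in parental and 51.8% in MM468/PR cells, HOXA 18.9% and 32.4%, and HOXB 21.4% and 15.8%. HOXB thus held slightly more than HOXA in parental cells, and HOXA more than HOXB in MM468/PR cells. By counts, HOXA made up 1038 of 5432 HOX counts in parental cells (19.1%, exact 95% binomial interval 18.1 to 20.2) and 2695 of 8089 in MM468/PR cells (33.3%, 32.3 to 34.4). These intervals, like all intervals here, cover counting error only. HOXD with 0 counts could hold at most 0.0679% and 0.0456% by the same intervals. The summed HOX TPM was 156 in parental and 179 in MM468/PR cells.

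**Figure D2:**
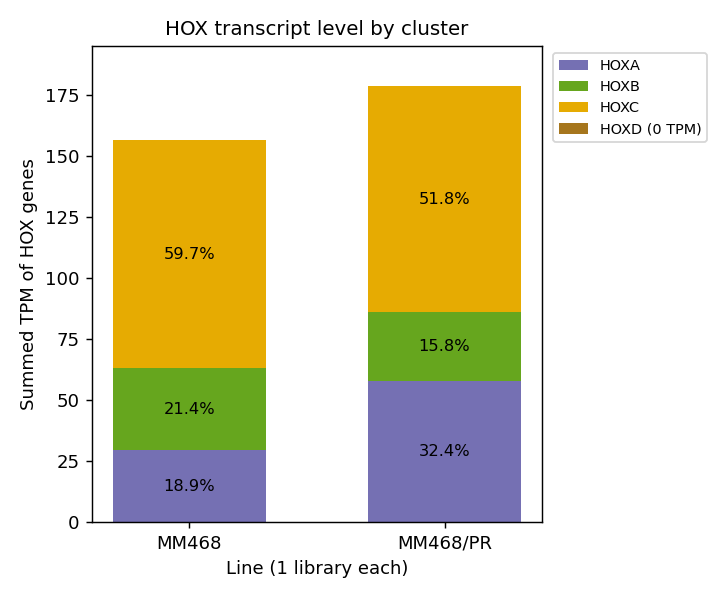
Summed TPM of the HOX genes in the 2 lines, stacked by cluster from 0, with the share of each cluster printed on its block. HOXC is the largest block in both, with 59.7% in parental and 51.8% in MM468/PR cells, HOXA is 18.9% and 32.4%, and HOXD is at 0.

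Posterior genes of HOXC led the levels. HOXC10, a lumbar identity gene, ranked first in both lines with a TPM of 36.4 in parental and 28.4 in MM468/PR cells, which was 23.3% and 15.9% of all HOX TPM. In parental cells HOXC12 (16.5), HOXB7 (16.2) and HOXC13 (15.5), a regulator of hair keratins, followed with levels too close to be ordered without replicates. HOXA10, a gene of the uterus and of blood progenitors, ranked 5 in parental cells with a TPM of 8.06 and 2 in MM468/PR cells with 20.4. HOXC13, HOXC12 and HOXB7 came next in MM468/PR cells, with a TPM of 18.2, 14.7 and 12.9.

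Taking the posterior genes (paralog groups 9 to 13) of all clusters together, they held 58.5% of HOX TPM in parental and 59.1% in MM468/PR cells. The central genes (groups 4 to 8) held 29.6% and 26.5%, and the anterior genes (groups 1 to 3) 11.9% and 14.4%. The split by position was thus closer in the 2 lines than the split by cluster. Within the posterior genes, those of HOXA went from 6.15% to 16.6% of HOX TPM and those of HOXC from 52.2% to 41.8%.

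In MM468/PR cells 5 of the 7 HOX genes that were past 2-fold and higher than in parental cells lay in HOXA, led by HOXA9. HOXA2, HOXA3, HOXA7, HOXA9, HOXA13, HOXB9 and HOXB13 were higher by 2-fold or more, and HOXB4, known for expanding blood stem cells, was lower. These are 7 and 1 of the 27 genes compared, and HOXA7, HOXB9 and HOXB13 are the 3 that reached 10 counts in MM468/PR cells only, a filter that favours higher values there. Among all 19099 genes compared, 20.5% were higher and 13.5% lower to this degree, and among protein-coding genes 13.9% and 14.5%. The median log2 fold change was 0.19 for the 27 and 0.07 for all genes. By cluster it was 1.00 for HOXA, -0.02 for HOXB and -0.28 for HOXC. The medians of the 27, HOXA and HOXB include the 3 genes that entered only through MM468/PR cells. No shift is read from these medians.

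HOXA9, a regulator of blood progenitors, had 15 counts in parental and 202 in MM468/PR cells. It had the largest fold change of the HOX genes, 8.65-fold higher with a 95% counting interval of 5.15 to 15.8, and its TPM was 0.490 and 5.35. Its neighbour HOXA10 had 303 and 937 counts and lay just under the threshold at 2.00-fold (1.75 to 2.28). HOXA11, with 23 and 71 counts, was 1.99-fold higher (1.23 to 3.35). HOXA13, which patterns the distal limb and urogenital tract, had 37 and 217 counts and was 3.78-fold higher (2.67 to 5.53). The 4 posterior HOXA genes thus all had higher values in MM468/PR than in parental cells, with 2 past the threshold and 2 at its edge. Scaled by library size alone, HOXA10 and HOXA11 passed it, at log2 values of 1.23 and 1.22.

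The rest of HOXA was not uniform. HOXA3, a gene of the pharyngeal arches and thymus, had 198 and 668 counts and was 2.18-fold higher in MM468/PR cells (1.86 to 2.57). HOXA2, with 18 and 59 counts, was 2.11-fold higher (1.23 to 3.82). HOXA4, which lies inside the annotated span of HOXA3, had 125 and 113 counts and was 1.71 times lower (1.32 to 2.23). HOXA3 and HOXA4 thus differed in opposite directions, the lower one by less than 2-fold. Their reads may not be fully separated. HOXA5, with 80 and 187 counts, was 1.51-fold higher (1.16 to 1.99), and HOXA6, with 17 and 25, had a fold change of 0.951 (0.493 to 1.88). HOXA7, between these and HOXA9, had 9 and 32 counts and was 2.28-fold higher (1.07 to 5.47).

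In HOXB, HOXB4 and HOXB7 had lower values in MM468/PR cells. Both posterior genes had higher values, but entered the comparison only through these cells, so no pattern by position is read. HOXB13, a prostate and hindgut identity gene, had 5 counts in parental and 61 in MM468/PR cells and was 7.75-fold higher (3.2 to 25.1). HOXB9 had 3 and 12 counts and was 2.53-fold higher, but its interval of 0.698 to 14.3 includes no difference. Both were near the count limit in parental cells, and their TPM in MM468/PR cells reached only 1.09 and 0.247. HOXB4 had 215 and 125 counts and was 2.66 times lower (2.13 to 3.35). HOXB7, with 327 and 321 counts, was 1.58 times lower (1.35 to 1.84) and HOXB6, with 39 and 40, 1.51 times lower (0.945 to 2.41). HOXB3, the most counted HOXB gene with 596 and 909 counts, and HOXB2, with 10 and 20, had fold changes of 0.986 (0.888 to 1.09) and 1.29 (0.577 to 3.09). HOXB3 turns slightly higher with library size scaling or TPM, so no direction is given for it.

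Under TMM scaling no HOXC gene differed by 2-fold between MM468/PR and parental cells. HOXC10 had 1064 and 1023 counts and was 1.61 times lower (1.48 to 1.76), and HOXC12, with 795 and 874, was 1.41 times lower (1.28 to 1.55). HOXC8, a thoracic identity gene with 44 and 35 counts, came nearest to the threshold at 1.94 times lower (1.22 to 3.12). HOXC4, with 57 and 162 counts, was 1.84-fold higher (1.35 to 2.53), or past the threshold at a log2 value of 1.10 with library size scaling. HOXC5, with 38 and 67, and HOXC6, with 189 and 379, were 1.14-fold (0.754 to 1.74) and 1.3-fold higher (1.09 to 1.55). Under this scaling HOXC4, HOXC5 and HOXC6, which share their annotated start, had values above those of parental cells and the other HOXC genes below. The intervals of HOXC5 and HOXC13 (0.839 to 1.05) include no difference. HOXC9 had 145 and 170 counts, HOXC11 324 and 413, and HOXC13 540 and 783, with fold changes of 0.758, 0.824 and 0.937, and the latter 2 change sign between scalings.

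**Figure D3:**
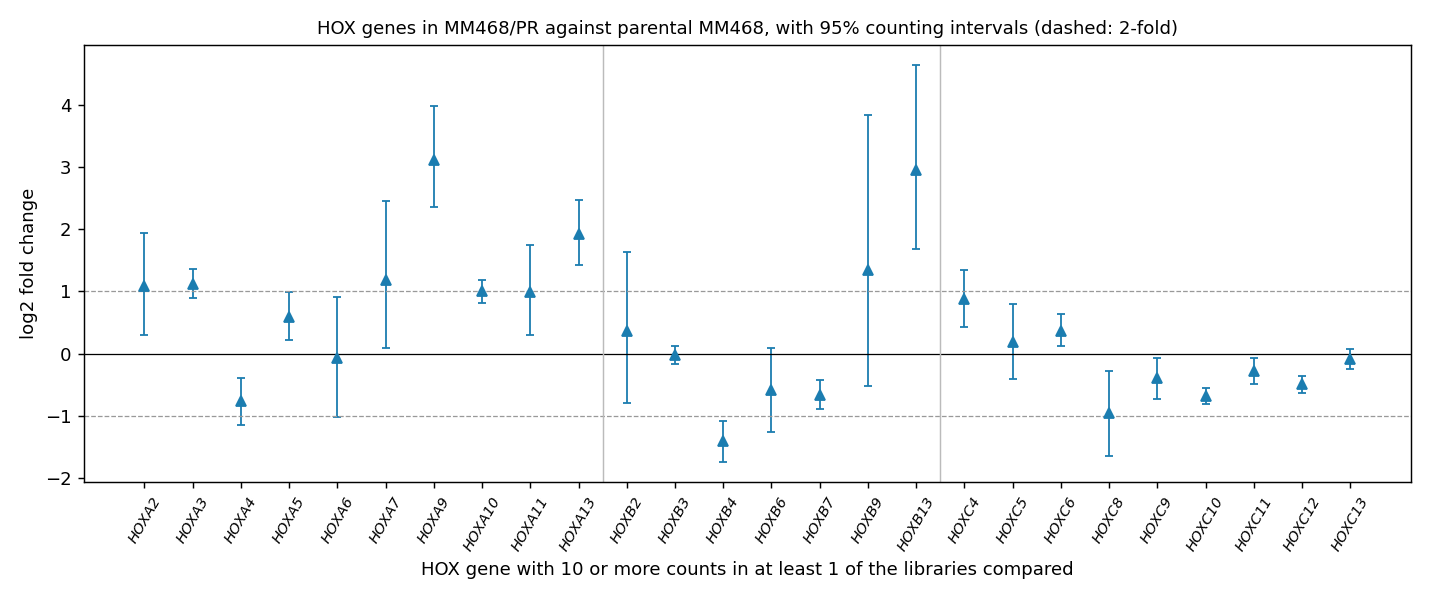
Log2 fold change of HOX genes in MM468/PR against parental MM468, with 95% counting intervals, in the order HOXA, HOXB, HOXC with dashed lines at 2-fold. HOXA9 leads at 3.11, followed by HOXB13 at 2.95 and HOXA13 at 1.92, HOXB4 is lowest at -1.41, and every HOXC gene is between the dashed lines.

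By position, 2 of 5 anterior, 1 of 11 central and 4 of 11 posterior genes were past 2-fold on the higher side. The central gene, HOXA7, and 2 of the 4 posterior ones, HOXB9 and HOXB13, entered the comparison only through MM468/PR cells, where they were high, so nothing is read from these counts by position. Posterior genes with 10 or more counts in both lines had a median log2 fold change of 1.46 in HOXA and -0.40 in HOXC. In paralog group 13, HOXA13 was higher, HOXC13 was within 1.07-fold of parental cells, and HOXD13 was at 0. HOXB13 of this group was also higher, but entered the comparison only through MM468/PR cells. Together the 4 genes of this group had a TPM of 16.1 in parental and 21.7 in MM468/PR cells, of which HOXC13 alone gave 15.5 and 18.2.

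Some non-coding genes of HOXA, namely HOTTIP, HOXA10-AS and HOXA-AS3, were higher by 2-fold or more in MM468/PR cells. HOXA11-AS, HOXA-AS2 and HOTAIRM1 were not. HOTTIP, a long non-coding RNA beside HOXA13, had 0 counts in parental and 40 in MM468/PR cells. This is 8.62-fold over a limit of 3 counts in parental cells, with a lower interval end of 6.69-fold. HOXA10-AS, antisense to HOXA10, had 22 and 134 counts and was 3.92-fold higher (2.50 to 6.49). HOXA-AS3, which overlaps HOXA5 to HOXA7, had 4 and 25 and was 3.97-fold higher (1.39 to 16.0). Other non-coding genes of HOXA stayed below 2-fold: HOXA11-AS with 37 and 70 counts and a fold change of 1.22, HOXA-AS2 with 61 and 103 and 1.09, and HOTAIRM1, at the anterior end, with 495 and 948 and 1.24. In HOXC, HOTAIR had 1318 and 1968 counts, HOXC13-AS 225 and 435, and HOXC-AS3 34 and 58, none past 2-fold. HOXC-AS1, with 24 and 18, was 2.05 times lower, and HOXC-AS2 had 0 and 7 counts. HOXB-AS1 had 10 and 19. Of the 11 non-coding genes compared, 3 passed 2-fold on the higher side and 1 on the lower, near the 20.5% and 13.5% of all genes. HOTTIP and HOXA-AS3 reached 10 counts in MM468/PR cells only, a filter that favours higher values there. Nothing is read from the count of higher genes.

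Shared sequence limits some of these values. In RefSeq 11 HOX genes overlap another HOX gene, among them HOXA3 with HOXA4, HOXA5 and HOXA6, HOXB3 with HOXB4, and HOXC4 with HOXC5 and HOXC6. HOXC4, HOXC5 and HOXC6 share their annotated start, so reads of one may have been assigned to another. Whether counting used strand is not stated in the sources used here, so reads of HOXA10, HOXC10, HOXC11 and HOXC13 cannot be told apart from those of HOXA10-AS, HOXC-AS3, HOTAIR and HOXC13-AS. The same holds for HOXA3, HOXA5, HOXA6 and HOXA7 with HOXA-AS3, for HOXA3 and HOXA4 with HOXA-AS2, for HOXB2 and HOXB3 with HOXB-AS1, and for HOXB6 with HOXB-AS3. HOXA7, with 32 counts in MM468/PR cells, lay beside 25 counts of HOXA-AS3. The HOXA10-HOXA9 readthrough transcript was listed at 0 counts in both lines, so no reads were assigned to it in place of HOXA9 or HOXA10.

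The coding genes that flank the expressed clusters mostly stayed below 2-fold. SKAP2, before the anterior end of HOXA, had 2287 and 3384 counts and a fold change of 0.956, and HIBADH, beyond HOXA13, had 2716 and 5783 and 1.38. Both were therefore below 2-fold in MM468/PR cells, where HOXA9 was 8.65-fold higher. Beside HOXC, CALCOCO1 had 1129 and 1945 counts, SMUG1 413 and 782, and CBX5 10629 and 15286, with no 2-fold difference. Beside HOXB, CALCOCO2 had 1523 and 1714 counts, and SKAP1 had 14 and 2 counts, a ratio of 0.0986 (0.0102 to 0.402). Of 9 flanking genes compared, SKAP1 alone passed 2-fold, on the lower side. The shares past 2-fold were 20.5% higher and 13.5% lower for all genes, and 13.9% and 14.5% for protein-coding genes.

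Among the TALE partners of HOX proteins, MEIS3 had 0 counts in parental and 1274 in MM468/PR cells. This is 274-fold over a limit of 3 counts in parental cells, with a lower interval end of 223-fold. TGIF2, a TALE repressor, had 264 and 957 counts and was 2.34-fold higher. MEIS2, a HOX cofactor, had 843 and 1923 and a fold change of 1.47. In all, 2 of 10 TALE genes passed 2-fold on the higher side and 1 on the lower. This is again near the 20.5% and 13.5% of all genes, and the shares of protein-coding genes were 13.9% and 14.5%. MEIS3, with 0 counts in parental cells, entered the comparison only through MM468/PR cells.

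Chromatin regulators of HOX genes came next. Of 27 Polycomb subunits 3 passed 2-fold, all on the lower side, where 13.5% of all genes and 14.5% of protein-coding genes lay. PCGF5, with 2189 and 959 counts, was 3.53 times lower, CBX7, with 663 and 333, 3.08 times, and PCGF6, with 522 and 367, 2.2 times. All 3 belong to the PRC1 arm of the complex, as do most of the 27, so nothing is read from this. Of 15 Trithorax and demethylase genes 1 passed 2-fold, on the higher side, which held 20.5% of all genes and 13.9% of protein-coding genes. This was WDR5, 2.19-fold higher with 1999 and 6768 counts.

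Of 16 genes of retinoic acid handling compared, 1 passed 2-fold on the higher side and 8 on the lower in MM468/PR cells. Beside this stand 20.5% and 13.5% of all genes, and 13.9% and 14.5% of protein-coding genes. The median log2 fold change of the 16 was -1.19. STRA6, the retinol uptake receptor, had 1252 counts in parental and 20 in MM468/PR cells and was 96.2 times lower. ALDH1A2, which makes retinoic acid, had 106 and 29 counts and was 5.63 times lower. CRABP2, a retinoic acid carrier, had 12452 and 4586 and was 4.2 times lower, and RDH10, which oxidises retinol, had 2782 and 1484 and was 2.9 times lower. CDX1, CDX2 and CDX4, which act upstream of HOX genes in the embryo, were at 0 counts in both lines. Whether any of these regulators bears on the HOX values was not tested.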

How the data were processed

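Poly(A) RNA of parental MM468 and MM468/PR cells, 1 library each, was prepared with a stranded Illumina kit and sequenced at Macrogen Japan Corp. For 46427 genes, the authors deposited raw read counts, and FPKM and TPM values computed from the same reads. The submitters' processing notes name Trimmomatic 0.39, HISAT2 2.2.1, StringTie 2.2.1 and GRCh38. Strand use in counting is not given in the sources used here. Some genes and a further library are not reported here.

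Normalization by TMM over the 2 libraries used edgeR 4.0.16 (R 4.3.3), for genes with 10 or more counts in 1 of them, and log2 fold changes were taken with a prior count of 0.125. Single libraries allow no test, so genes are described as higher or lower by 2-fold or more, beside the share of all genes that were. Each ratio of 2 counts has an exact (binomial) 95% interval. A fold change against 0 counts is given as the ratio to 3 counts in that library, beside the lower end of its interval. Total counts of 32704885 and 43242628 set this precision. TPM was used for levels between genes and for cluster shares. Genes, positions and promoters were matched to RefSeq GRCh38.p14, which held all 39 HOX genes.

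HOX genes are named, as are flanking and non-coding genes of the clusters with 10 or more counts in a library of the series. Of the other lists, genes with 100 or more counts in such a library and at least a 2-fold difference are named, at most the 5 largest each way, and MEIS2 was added after its values were seen. The members and lists were chosen with earlier results of these data known. The alternatives included scaling by library size only, DESeq2 1.42.0 size factors, TMM over the 3 libraries of the series, a prior count of 2, other count minimums, a 4-fold threshold and the deposited FPKM and TPM values. On counts simulated with counting error only, 100% of 200 genes changed 4-fold passed 2-fold in the right direction. Each had 200 or more counts over the 2 libraries together. This checks the calculation only, and covers neither variation between cultures nor genes with fewer counts, as many HOX genes are.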

Additional observations from a re-analysis of the deposited data

How the results depend on the processing

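No paired analysis was possible because each line was sequenced once, and no library could be left out. HOX genes counted as higher and lower were 2 and 0 with a 4-fold threshold, 2 and 0 with FPKM and a pseudocount of 1, and 4 and 0 with TPM and a pseudocount of 1, which shrinks low values. Without a count minimum 2 were lower, and with a minimum of 100 counts, which leaves fewer genes, 4 were higher. For all genes, the 4-fold threshold gave 1991 higher and 873 lower, FPKM 1374 and 882, and a minimum of 100 counts 1702 and 1569. Without a minimum 7035 were higher, and TPM with a pseudocount of 1 or 0.1 gave 1055 or 1580 lower. Scaling by library size only moved the median of all genes by 0.23 on the log2 scale, and the share of higher among genes past 2-fold from 60.2% to 71.2%. TPM gave 71.2% with a pseudocount of 1 and 75.5% with 0.1.

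Anterior genes past 2-fold numbered 0 at 4-fold and with FPKM, and 1 with TPM and a pseudocount of 1 and with a minimum of 100 counts. Central genes numbered 0 at 4-fold, with FPKM and with TPM and a pseudocount of 1, and 1 with a minimum of 100, and posterior genes 2 at 4-fold and with FPKM. Without the overlapping members, the shares of HOXA, HOXB and HOXC were 13.9%, 15.6% and 70.6% in parental and 28.5%, 12.5% and 59% in MM468/PR cells. By counts HOXB held 18.4% and HOXC 48.3% in MM468/PR cells. HOXC held the largest share, and HOXA more in MM468/PR than in parental cells, in each of these.

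Of 260 values of single HOX genes under the alternatives, 216 stayed within the counting interval, and none of the genes past 2-fold changed sign. Among the 17 that did, HOXC13 went from -0.09 to 0.13 and HOXB3 from -0.02 to 0.21 with library size only, and HOXC11 from -0.28 to 0.04 with TPM and a pseudocount of 1. Of 76 values of genes past 2-fold, 12 fell under it, 7 with FPKM and 5 with TPM and a pseudocount of 1. HOXA10, just under 2-fold at a log2 value of 1.00, ranged from 0.98 with DESeq2 size factors to 1.33 with TPM and a pseudocount of 0.1. Depth limits HOXA7, HOXB9 and HOXB13 most, with under 10 counts in parental cells.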

Other observations

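Of 48 homeobox genes outside the HOX clusters, 8 passed 2-fold on the higher side and 11 on the lower in MM468/PR against parental MM468 cells, beside 20.5% and 13.5% of all genes. Among protein-coding genes the shares were 13.9% and 14.5%. The first count lies under the share of all genes but above that of protein-coding genes, and the second lies above both shares. Some of the higher genes reached 10 counts in MM468/PR cells only, and some of the lower ones in parental cells only. Nothing is read from these counts. NKX2-5, a heart identity gene, had 20 counts in parental and 261 in MM468/PR cells and was 8.4-fold higher. ONECUT2, with 204 and 1594 counts, was 5.05-fold higher, SHOX2, with 19 and 106, 3.59-fold, and TLX3, with 48 and 212, 2.85-fold. EN1 was 7.29 times lower, with 76 and 16 counts, and PITX1, a hindlimb identity gene with 3389 and 1425 counts, 3.68 times. IRX3, with 3078 and 2034 counts, IRX6, with 1443 and 1046, and MNX1, with 74 and 55, were 2.34, 2.13 and 2.08 times lower.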
